A study of Mus musculus with 10 samples.

Results

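The genes described here are those of the ATF4 response and of tRNA charging in 10 mouse 4T1 tumors. Members were all genes that the deposited expression table annotates to the KEGG pathway aminoacyl-tRNA biosynthesis (44 genes), together with 28 genes named one by one as ATF4, its partners, its upstream kinase and its targets. They took up 73 of the 21959 gene lines of the table, since Ddit3 is listed 2 times. The rule itself holds no measured value. The names were nevertheless put together after earlier results of the exercise comparison in these tumors were known, and Cebpg in particular was known to lie among the genes with the smallest p-values. All differences between exercise and non-exercise tumors are therefore given as a description.

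4T1 is a mouse mammary carcinoma cell line used to model triple-negative mammary tumors. The cells were injected under the abdominal skin of female BALB/c mice aged 5 to 6 weeks. The exercise group (E, 5 tumors) had 21 days of voluntary running, and the non-exercise group (NE, 5 tumors) had 21 days of normal husbandry. Each library was the bulk RNA of 1 tumor from 1 mouse, so that tumor cells, host cells and muscle around the tumor were read together, and fewer cells of a type and less RNA per cell cannot be told apart.

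When a cell runs short of an amino acid, uncharged tRNAs activate the kinase GCN2, which phosphorylates the translation factor eIF2. Translation in general slows, while the mRNA of the transcription factor ATF4 is translated better, and other eIF2 kinases feed into the same step under endoplasmic reticulum stress, viral infection or lack of heme. ATF4 pairs with C/EBP proteins on a composite DNA element and raises the transcription of amino acid transporters, of enzymes that make serine, glycine, asparagine and proline, and of many cytosolic tRNA synthetases, the enzymes that attach each amino acid to its tRNA. Because ATF4 itself is controlled mainly through its translation, the mRNA of its targets is commonly read as a measure of the pathway.

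The composite element has the core letters TGATGNAA, where N is any base, and its best known form is TGATGCAA. Both were searched on both strands in the RefSeq promoter windows of the mouse genome GRCm38.p6, each running from 250 bases before to 50 bases after a gene start. Of the 72 members that could be compared between groups, 58 had a promoter entry. TGATGNAA lay in the windows of 13 of these members (22.4%) in 2.85% of the 10674 tested genes with an entry, and in 4.51% of all 27025 genes with an entry. The narrower TGATGCAA lay in 10 members (17.2%), in 0.778% of the tested genes and in 1.03% of all genes, and each such site is also a TGATGNAA site. Both shares are a description of letters. They say nothing of binding by ATF4, which was not measured.

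The stretches below are printed because they show where those letters lie in front of a regulator, synthesis enzymes, a transporter, stress targets and cytosolic synthetases, with the element in capitals. They read 5′ to 3′ in the sense of the gene, and TTGCATCA is TGATGCAA on the other strand. All lie upstream of the gene start.
Asns, chr6:7693210-7693252, minus strand: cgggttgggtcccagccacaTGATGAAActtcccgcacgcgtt
Pycr1, chr11:120643824-120643871, minus strand: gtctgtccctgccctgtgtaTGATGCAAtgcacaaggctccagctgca
Slc7a11, chr3:50443633-50443699, minus strand: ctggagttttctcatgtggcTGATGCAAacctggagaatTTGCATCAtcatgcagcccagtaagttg
Chac1, chr2:119351029-119351076, plus strand: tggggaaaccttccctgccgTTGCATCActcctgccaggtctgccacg
Vldlr, chr19:27216800-27216847, plus strand: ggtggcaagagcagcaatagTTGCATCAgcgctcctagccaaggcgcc
Nupr1, chr7:126625553-126625600, minus strand: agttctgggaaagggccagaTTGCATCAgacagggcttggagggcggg
Aars, chr8:111033710-111033757, plus strand: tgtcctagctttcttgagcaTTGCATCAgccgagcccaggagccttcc
Gars, chr6:55037951-55037998, plus strand: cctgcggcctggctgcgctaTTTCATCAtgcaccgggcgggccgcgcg
Tars, chr15:11399659-11399693, minus strand: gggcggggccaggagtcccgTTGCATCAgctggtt

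The Slc7a11 window held the element on both strands. Trib3, Iars and Yars had theirs just downstream of the gene start, Slc1a4 had 1 across it, and Aars had a further one downstream. By role, the element was found in 5 of 14 cytosolic synthetases, in 0 of 15 mitochondrial synthetases and in 8 of 25 of the genes named one by one. Gars and Kars are counted as cytosolic throughout, though the members hold no separate mitochondrial gene for glycine or lysine. Gars and Kars can therefore not be taken as cytosolic only. Aldh1l2, Slc1a5, Slc7a5, Cars, Hars, Lars, Nars, Rars, Vars, Wars, Pars2, Gatb and Sepsecs were among the members with no entry.

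The libraries held 15045613 to 20646763 counted reads in E and 18706032 to 23092251 in NE, and levels are given as counts scaled to a common library size (CPM) with the trimmed mean of M-values. A count of 3, taken as the floor, corresponded to 0.130 to 0.199 CPM. The 73 member lines took 0.748% (E5) to 0.951% (E1) of all counts. Markers of epithelial carcinoma cells were low, and 3 of the list of 9 (Cdh1, Cldn7 and Epcam) had enough counts to be tested. Krt8 reached at most 1.24 CPM, Krt18 at most 2.20 CPM and Epcam at most 3.14 CPM in any tumor, and Krt14 and Krt5 were highest in NE5 (54.2 and 28.9 CPM). Cdh1 had 6.83 to 20.6 CPM. The list of 9 summed to 10.3 to 19.4 CPM in E and to 11.7 to 108 CPM in NE. Skeletal muscle genes, a list of 12, summed to 308 to 4235 CPM in E and to 6.16 (NE1) to 30354 CPM (NE4) in NE. All 12 had reads. Fibroblast genes, a list of 7, summed to 2205 (E3) to 15446 CPM (E5) in E and to 986 (NE1) to 4980 CPM (NE4) in NE. Neutrophil genes, a list of 8, summed to 90.1 to 533 CPM in E, highest in E5 (533 CPM) and with 382 CPM in E3. In NE they summed to 74.9 to 135 CPM, so that the groups overlapped. Macrophage or monocyte genes, a list of 9, summed to 2554 to 4252 CPM in E and 1244 to 4373 CPM in NE. Endothelial genes had 114 to 190 CPM in E and 104 to 176 CPM in NE. For T cell genes it was 64.8 to 99.4 and 46.6 to 108 CPM, and for adipocyte genes 10.7 to 28.8 and 8.41 to 84.1 CPM. With the muscle score of each tumor in the fit, no gene passed the thresholds used below. The part of the other cell types in the values below was not tested.

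Members lay lower in E more often than higher, by small amounts. Of the 72 members tested, 61 had a log2 fold change (E over NE) below 0 and 11 above 0, beside 54% of all 13517 genes tested below 0. The median was −0.11 over the members and −0.01 over all genes tested. In several roles the genes ran together over the tumors, as given below. The signs are therefore not independent of each other, here or in the counts by role. No member passed both thresholds, a 2-fold difference and an FDR of 0.05, with edgeR's quasi-likelihood test, where 0% of all genes passed them, and the lowest adjusted p of any member was 0.897. An unadjusted p of at most 0.05 was reached by 9 members (12.5%), beside 4.86% of all genes tested. All 9 were lower in E, beside 2.29% of all genes lower in E at that p, and 0 were higher, beside 2.57% of all genes higher. They were Cebpg, Psat1, Chac1, Eprs, Farsb, Rars, Tars, Tarsl2 and Mars2.

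The count of 9 depended on single tumors. Without E1 it was 24, all lower in E, beside 5.71% of all genes. Without E4 it was 5, beside 4.04% of all genes, and without E5 it was 4, beside 2.73%. With DESeq2 the count was 13, of which 12 were lower in E, beside 5.92% of all genes, and no member passed an FDR of 0.05 at any fold change (lowest adjusted p by DESeq2 0.133). With limma-voom and sample weights the count was 19, all lower in E, beside 13.3% of all genes, and the lowest adjusted p by limma was 0.294.

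**Figure D1:**
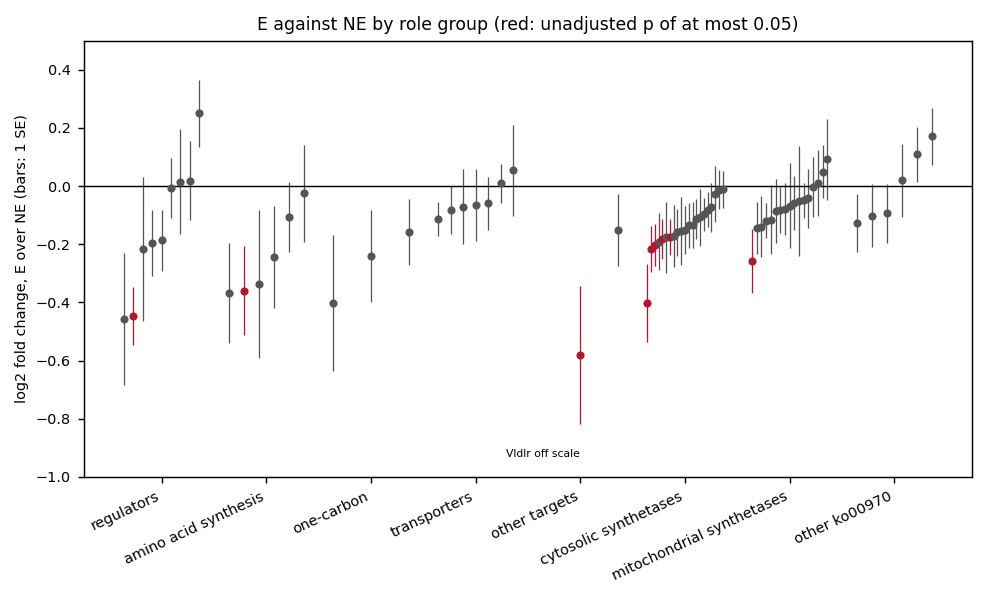
Log2 fold change of each tested member (vertical axis, E over NE, bars 1 SE) grouped by role (horizontal axis), with members at an unadjusted p of at most 0.05 in red. All 21 cytosolic synthetases lie below 0 in this fit (20 of 21 with limma-voom), and Vldlr, at −1.90, is off the scale and written in.

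Of the 9 transcription factors, kinase and feedback genes tested, 6 had a log2 fold change below 0 and 3 above 0. Of all genes tested, 54% were below 0. Atf4, the central transcription factor, had 393, 295, 279, 288 and 270 CPM in E1 to E5 and 387, 319, 325, 361 and 345 CPM in NE1 to NE5. E1 held the highest value of all 10 tumors, the other 4 E tumors lay below every NE tumor, and the log2 fold change was −0.19 (SE 0.105). Cebpg, the C/EBP protein that dimerises with ATF4, had 56.1, 56.3, 47.6, 52.8 and 50.3 CPM in E and 58.8, 67.8, 76.2, 87.2 and 68.8 CPM in NE. Every E tumor lay below every NE tumor, a lack of overlap seen with E lower in 0.289% of all genes tested. Its log2 fold change was −0.45 (SE 0.0996), with means of 52.6 ± 3.74 and 71.8 ± 10.6 CPM (SD, n = 5 each), and −0.45 (SE 0.0518) with the muscle score in the fit. In that edgeR fit the adjusted p of Cebpg was 0.0622, the lowest of the fit and above 0.05. Cebpg was named with its small p already known.

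Trib3, a pseudokinase induced by ATF4 that restrains it in return, had 27.3, 18.5, 14.1, 17.7 and 11.7 CPM in E and 22.1, 20.8, 19.4, 32.2 and 28.2 CPM in NE. Without E1 the 4 E tumors would lie below all NE tumors, while with it the groups overlapped. The log2 fold change was −0.46 (SE 0.227). Here and for the other members described in this way, the tumor set aside was picked after the values were seen. How many of all genes tested show such a split was not counted. Since members ran together over the tumors, its repeats are not independent of each other. Eif2ak4, which encodes GCN2, had 37.5, 35.2, 44.6, 39.5 and 36.9 CPM in E and 39.1, 43.7, 39.9, 30.3 and 41.6 CPM in NE. The groups overlapped in full and the log2 fold change was −0.01 (SE 0.104). Ppp1r15a (GADD34), the phosphatase subunit that reverses eIF2 phosphorylation, lay the other way: 30.1, 24.7, 31.4, 28.1 and 32.5 CPM in E and 27.6, 23.1, 23.9, 19.7 and 29.0 CPM in NE. E was higher in 22 of 25 pairs of an E and an NE tumor, which use each tumor more than once and are not independent. The log2 fold change was 0.25 (SE 0.116, unadjusted p by edgeR 0.0563).

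The other members of that group were Atf5 (log2 fold change −0.22), Ddit3 (−0.20), which encodes CHOP, Cebpb (0.02) and Nupr1 (0.02), and none of them reached an unadjusted p of 0.05 in the unpaired fit. The line of Ddit3 tested is the longer one, since the other held 0 reads in every tumor.

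**Figure D2:**
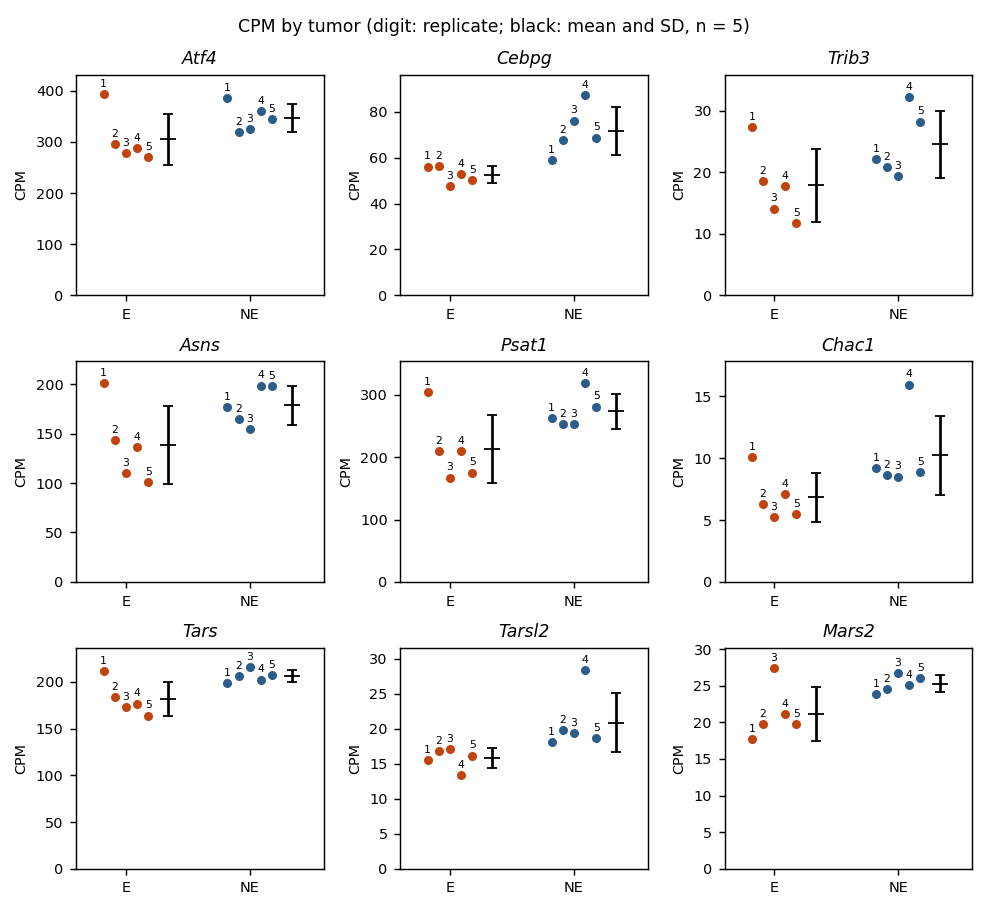
CPM (vertical axis, from 0) of 9 members in each tumor, E and NE on the horizontal axis, with the replicate number above each point and the mean and SD (n = 5) in black. E1 stands above the other E tumors in Atf4, Trib3, Asns, Psat1, Chac1 and Tars, E3 does so in Mars2, and the groups are separate in Cebpg and Tarsl2.

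All 6 enzymes of amino acid synthesis had a log2 fold change below 0, beside 54% of all genes tested, with a median of −0.29. The count was 5 of 6 with limma-voom, where Pycr1 was above 0. Asns, which makes asparagine, had 201, 144, 110, 136 and 101 CPM in E and 177, 164, 155, 198 and 198 CPM in NE. As for Atf4, E1 was the highest tumor of all and the other E tumors lay below all NE tumors (log2 fold change −0.37, SE 0.171). Psat1, the aminotransferase of serine synthesis, had 305, 210, 167, 210 and 175 CPM in E and 263, 253, 253, 320 and 281 CPM in NE. E1 lay among the NE tumors and the other 4 E tumors below them (log2 fold change −0.36, SE 0.153).

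Gpt2, the mitochondrial alanine aminotransferase, had 66.9, 48.6, 29.6, 40.7 and 40.1 CPM in E and 53.7, 44.5, 42.1, 92.5 and 52.3 CPM in NE. The single high value of NE4, the tumor with the most muscle RNA, carried much of its log2 fold change of −0.34 (SE 0.255), which was −0.09 without NE4. Pycr1, the last step of proline synthesis, had 8.81, 7.97, 5.75, 6.24 and 7.95 CPM in E and 7.81, 7.12, 6.04, 9.63 and 6.75 CPM in NE, with full overlap (−0.02, SE 0.167). Phgdh and Psph, the first and last enzymes of serine synthesis, had log2 fold changes of −0.11 and −0.24. Of the 50-base stretches of Phgdh, 63.1% are shared with 14 other genes of the GENCODE annotation, so that its count is uncertain.

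The 3 enzymes of mitochondrial one-carbon metabolism, which pass on the carbon unit of serine, were also below 0. Aldh1l2 had 52.1, 43.4, 25.6, 39.1 and 27.9 CPM in E and 41.9, 57.2, 31.8, 53.2 and 64.6 CPM in NE (log2 fold change −0.40, SE 0.233). E3 and E5 were lowest and NE5 highest, with overlap. Shmt2, the serine hydroxymethyltransferase of mitochondria, had 204, 164, 131, 148 and 150 CPM in E and 201, 179, 154, 174 and 180 CPM in NE (−0.16, SE 0.114), and Mthfd2 had a log2 fold change of −0.24. In Shmt2 too, E1 was the highest of the 10 tumors.

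The 7 amino acid transporters had log2 fold changes from −0.11 to 0.05, and none reached an unadjusted p of 0.05. Slc38a2 (SNAT2), a carrier of small neutral amino acids and the most abundant member in CPM, had 973, 932, 1006, 878 and 858 CPM in E and 1078, 1028, 986, 952 and 984 CPM in NE (−0.11, SE 0.0593). E1 and E3 lay among the NE tumors. Slc7a11 (xCT), which brings in cystine, had 19.1, 15.1, 16.6, 16.1 and 21.8 CPM in E and 12, 19.1, 15.3, 18.6 and 20.4 CPM in NE (0.05, SE 0.157), with full overlap. Slc7a5 and its heavy chain Slc3a2, Slc7a1, Slc1a4 and Slc1a5 lay between −0.08 and 0.01.

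Among the 3 remaining targets, Chac1, an enzyme that degrades glutathione, had 10.1, 6.29, 5.21, 7.09 and 5.47 CPM in E and 9.21, 8.63, 8.51, 16.0 and 8.89 CPM in NE. Only E1 of the E tumors lay above any NE tumor. The log2 fold change was −0.58 (SE 0.237) and −0.36 without NE4. Sesn2, a leucine sensor that restrains mTORC1, had 69.1, 47.5, 43.8, 48.3 and 48.3 CPM in E and 52.9, 54.6, 52.7, 66.7 and 58.4 CPM in NE (−0.15, SE 0.124). Here again E1 was highest and the other E tumors lay below all NE tumors.

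Vldlr, the very low density lipoprotein receptor, had 3.11, 11.9, 1.52, 2.88 and 3.52 CPM in E and 0.297, 2.86, 4.14, 76.5 and 2.19 CPM in NE. One tumor set its difference: the log2 fold change was −1.90 (SE 1.23) with all tumors and 0.97 without NE4. NE4 and E2, its highest tumors, were also the tumors with the most muscle RNA in their groups (2.88% and 0.433% of counts). With the muscle score of each tumor in the fit, the log2 fold change of Vldlr was −0.30 (SE 0.354).

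All 21 cytosolic synthetases had a log2 fold change below 0, beside 54% of all genes tested, with a median of −0.15. The count was 20 of 21 with limma-voom, and 18 to 21 when single tumors were left out. An unadjusted p of at most 0.05 was reached by 5 of them, beside 2.29% of all genes lower in E at that p. Eprs, which charges glutamate and proline, had 261, 269, 285, 269 and 242 CPM in E and 258, 323, 315, 294 and 349 CPM in NE (−0.22, SE 0.0806). NE1 lay among the E tumors and the other NE tumors above them. Rars, for arginine, had 259, 251, 280, 272 and 242 CPM in E and 267, 319, 319, 275 and 321 CPM in NE (−0.20, SE 0.0715). E3 and E4 exceeded the lowest NE tumor. Tars, for threonine, had 212, 184, 173, 177 and 164 CPM in E and 198, 206, 216, 202 and 207 CPM in NE (−0.18, SE 0.0685), again with E1 alone among the NE tumors.

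The phenylalanine enzyme has 2 subunits. Farsb, the beta subunit, had 104, 93.7, 94.3, 87.4 and 88.9 CPM in E and 95.4, 108, 108, 113 and 105 CPM in NE (−0.18, SE 0.0615), where only E1 exceeded an NE tumor. Farsa, the alpha subunit, had 58.9, 58.9, 51.3, 61.0 and 60.4 CPM in E and 62.5, 58.8, 56.2, 54.4 and 60.7 CPM in NE (−0.01, SE 0.063). The difference between the subunits was not tested. Tarsl2, a second cytosolic threonine enzyme, had 15.6, 16.8, 17.1, 13.4 and 16.2 CPM in E and 18.1, 19.7, 19.4, 28.4 and 18.7 CPM in NE. It was the other member whose groups did not overlap, with a log2 fold change of −0.40 (SE 0.134) and of −0.26 without NE4.

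The 16 cytosolic synthetases without such a p lay between −0.19 (Dars, for aspartate) and −0.01 (Farsa). Nars, Gars and Aars, for asparagine, glycine and alanine, had −0.15, −0.16 and −0.11, and Mars1, Sars and Wars, for methionine, serine and tryptophan, had −0.14, −0.17 and −0.18. Of the stretches of Aars, 22.4% are shared with Exosc6.

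**Figure D3:**
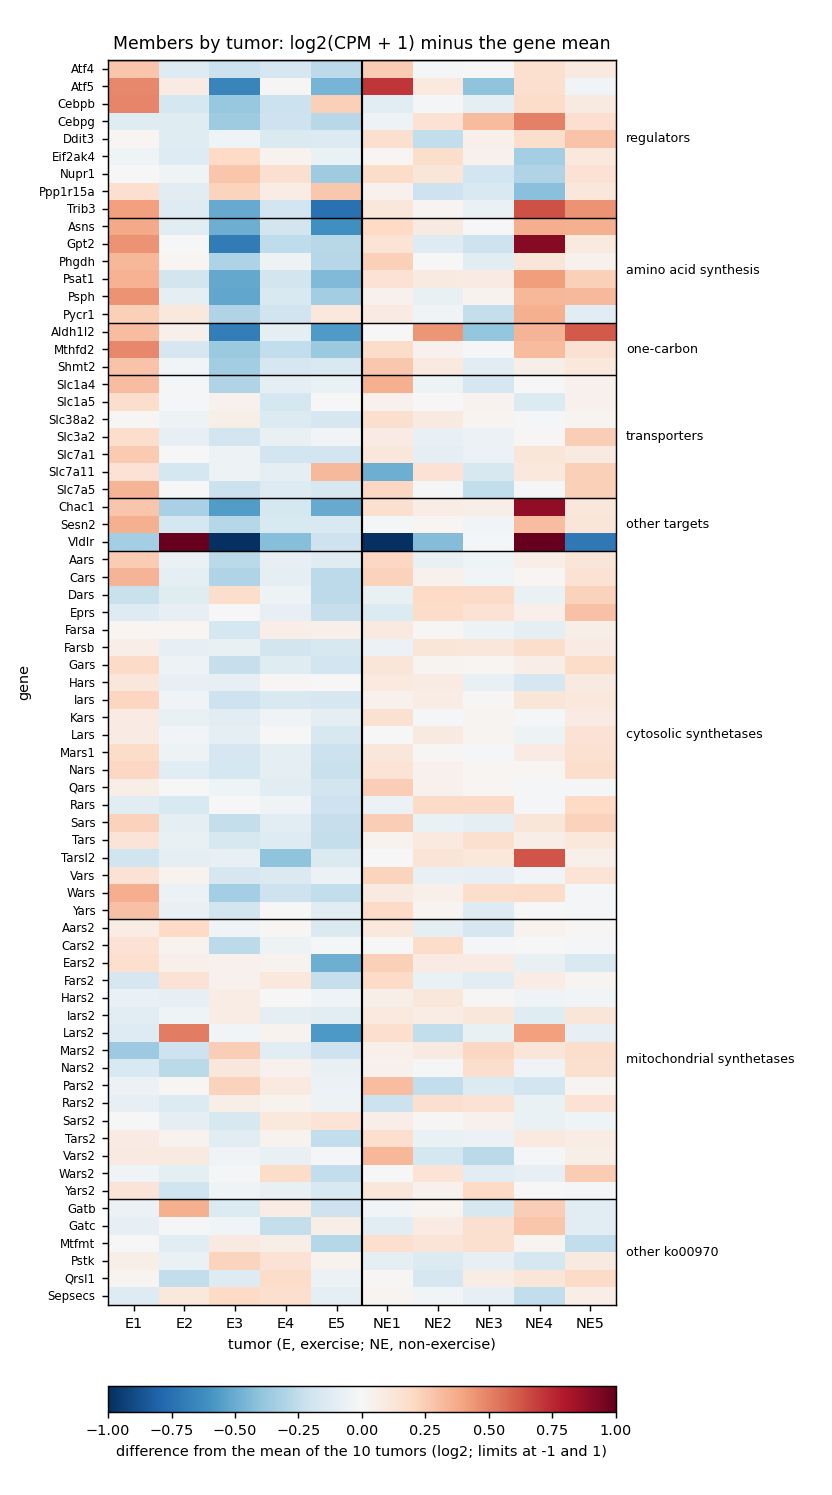
Each row is a member, grouped by role, and each column a tumor; color is log2(CPM + 1) minus the mean of the gene over the 10 tumors, with colors ending at −1 and 1. The median over the cytosolic synthetases is 0.13 in E1, −0.17 in E3 and −0.18 in E5, and that over the mitochondrial ones −0.04, −0.01 and −0.14.

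The mitochondrial synthetases had smaller differences, with a median of −0.07 and 14 of 17 below 0, beside 54% of all genes tested. Mars2, the mitochondrial methionine enzyme, had 17.7, 19.8, 27.4, 21.2 and 19.7 CPM in E and 23.9, 24.5, 26.8, 25.1 and 26.1 CPM in NE (−0.26, SE 0.111). E3 had the highest value of all and the other E tumors lay below all NE tumors. Lars2, for leucine, varied most, with 80.0, 125, 85.8, 89.6 and 58.4 CPM in E and 98.7, 73.8, 83.3, 117 and 82.5 CPM in NE (−0.05, SE 0.188). Its highest tumors were E2 and NE4, those with the most muscle RNA in each group. Pars2, for proline, had 8.52, 9.07, 10.6, 9.65 and 8.53 CPM in E and 11.3, 7.39, 8.02, 7.71 and 9.12 CPM in NE (0.09, SE 0.138), with NE1 highest.

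The 6 other genes of the charging pathway make or correct particular aminoacyl-tRNAs. Pstk, a kinase on the route to selenocysteine, had 11.9, 10.8, 13.4, 12.6 and 11.7 CPM in E and 10.6, 10.2, 10.7, 9.95 and 12.1 CPM in NE (0.17, SE 0.0969). E was higher in 22 of 25 pairs of tumors, which are not independent (unadjusted p by edgeR 0.107). Of the exonic bases of Pstk, 58.8% lie under Ikzf5 on the other strand. The reads of Pstk and Ikzf5 cannot be told apart there, since the strand setting of the counting is not stated. Gatb and Gatc are subunits of the mitochondrial glutamine amidotransferase. Gatb had 18.9, 25.5, 17.9, 20.8 and 17 CPM in E and 19.4, 20.1, 17.5, 23.6 and 18.2 CPM in NE (0.02, SE 0.127), with E2 and NE4 highest. Gatc had 21.6, 22.8, 22.5, 19.2 and 24.0 CPM in E and 21.1, 24.4, 25.7, 27.9 and 21.1 CPM in NE (−0.13, SE 0.0988), with overlap. Mtfmt, Qrsl1 and Sepsecs lay between −0.10 and 0.11.

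A list of 34 further genes of the pathway, which are no members, was read beside them. It held the other eIF2 kinases, subunits of eIF2B, further ATF4 targets and the scaffold proteins of the synthetase complex. Of the 33 tested, 22 were below 0 and 11 above 0, beside 54% of all genes tested below 0. An unadjusted p of at most 0.05 was reached by 4, all lower in E, beside 2.29% of all genes. These were the 3 scaffold proteins Aimp1 (−0.14, SE 0.0586), Aimp2 (−0.20, SE 0.0773) and Eef1e1 (−0.20, SE 0.0821), and the cytosolic serine hydroxymethyltransferase Shmt1 (−0.22, SE 0.0666). None was called, the lowest adjusted p by edgeR being 0.897.

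The members were also compared by how alike they ran over the 10 tumors, with E and NE tumors pooled. Asns was taken as the reference target, and likeness was Pearson's r of log2(CPM + 1) with Asns. The group means were not removed, so that the differences between E and NE tumors enter each r. Likeness apart from the groups was not tested. All points share their libraries, so that the depth and cell makeup of each tumor enter every gene, and the values are given as a description. The median r over all tested genes was −0.03. It was 0.88 over the other enzymes of amino acid synthesis, 0.86 over the one-carbon enzymes, 0.76 over the cytosolic synthetases, 0.65 over the transporters and 0.61 over the regulators. Mitochondrial synthetases had 0.26 and the other pathway genes 0.13.

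Of the 71 other members, 28 (39.4%) had an r above 0.7, beside 2.84% of all genes tested. The gene most like Asns among all 13516 others was Trib3 (r = 0.98), followed by Mars1 and Psat1 (0.97 each). Of the 20 genes most like Asns 11 were members (55%), while members made up 0.525% of the genes compared. The others of the 11 were Gars, Mthfd2, Psph, Iars, Nars, Atf4, Sars and Cars, with r from 0.95 down to 0.89. Cth, which makes cysteine and was on the list of further pathway genes, was also among the 20 (0.89).

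Not all cytosolic synthetases ran with Asns. Dars (r = 0.13), Farsa (0.20), Hars (0.26), Rars (0.37), Eprs (0.44) and Tarsl2 (0.46) were the least alike. Eprs, Rars and Tarsl2 were among the 9 members with an unadjusted p of at most 0.05, while none of the 12 cytosolic synthetases with an r above 0.7 other than Farsb and Tars was. Among mitochondrial synthetases 1 of 17, Tars2 (0.82), had an r above 0.7. The lowest r of all members were those of Eif2ak4 (−0.27), Sepsecs (−0.43), Pstk (−0.46) and Ppp1r15a (−0.49).

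The 5 cytosolic synthetases with the composite element in their promoter window, Aars, Gars, Iars, Tars and Yars, had a median r of 0.87, and the 9 with an entry and no element had 0.61. Over all members with a value the medians were 0.76 (12 with the element) and 0.47 (45 without it). Over the genes named one by one the order was the other way, 0.45 (7 with) and 0.79 (17 without), and Psat1, Mars1 and Mthfd2, among those most like Asns, had no such letters in their windows. These splits were not tested.

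**Figure D4:**
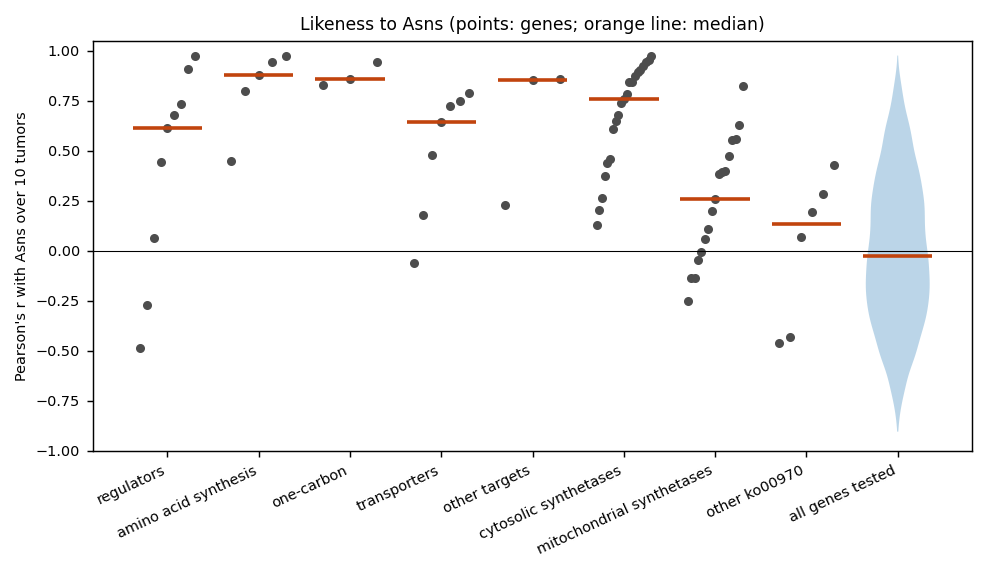
Pearson's r with Asns over the 10 tumors (vertical axis) for each member, by role (horizontal axis); points are genes, orange lines medians, and the shape at the right all genes tested. Synthesis and one-carbon enzymes lie near the top, cytosolic synthetases spread from 0.13 to 0.97, and mitochondrial synthetases center on 0.26.

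A few tumors held most of the extreme values. Of the 28 genes named one by one, 11 were highest in E1, the tumor with the highest member share of counts, 7 were highest in NE4, 14 were lowest in E3 and 6 were lowest in E5. Of the 21 cytosolic synthetases 9 were highest in E1, 10 lowest in E3 and 8 lowest in E5. The highest and the lowest tumor for Asns, E1 with 201 CPM and E5 with 101 CPM, were both exercise tumors. Rank correlation gave medians of 0.75 for the named genes, 0.73 for the cytosolic and 0.09 for the mitochondrial synthetases. Without E3 and E5, the tumors farthest from the median of Asns, Pearson's medians were 0.70, 0.61 and −0.02. Without NE4 they were 0.76, 0.83 and 0.29.

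Without a reference gene, likeness was taken as the median r over all pairs of genes in a role, again with E and NE tumors pooled. It was 0.84 among the synthesis enzymes, 0.76 among the one-carbon enzymes, 0.56 among cytosolic synthetases, 0.40 among transporters, 0.19 among regulators, 0.15 among mitochondrial synthetases, −0.05 among the other pathway genes and −0.004 among all genes tested. Among Chac1, Sesn2 and Vldlr it was 0.54 with all tumors and −0.11 without NE4, while their median r with Asns was 0.85.

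Levels were compared between genes per length, as FPKM from the table. The cytosolic synthetases had a median of 36.6 FPKM, from 2.71 (Tarsl2) to 126 FPKM (Gars). The mitochondrial ones had a median of 3.66 FPKM, from 1.72 to 12.3 FPKM. Gars, like Kars, has no separate mitochondrial gene among the members and may not be cytosolic only. Of the cytosolic enzymes 20 of 21 lay above the highest mitochondrial one. For 14 amino acids the table holds a separate cytosolic and mitochondrial gene named as a pair, and the cytosolic gene was higher in every tumor of all 14. The median ratio over tumors ran from 2.91 (Iars over Iars2) to 69.7 (Nars over Nars2), and the lowest ratio in any tumor was 2.39 (Lars over Lars2 in E2). The gene lengths are those the table lists, and they set the scale of such ratios.

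**Figure D5:**
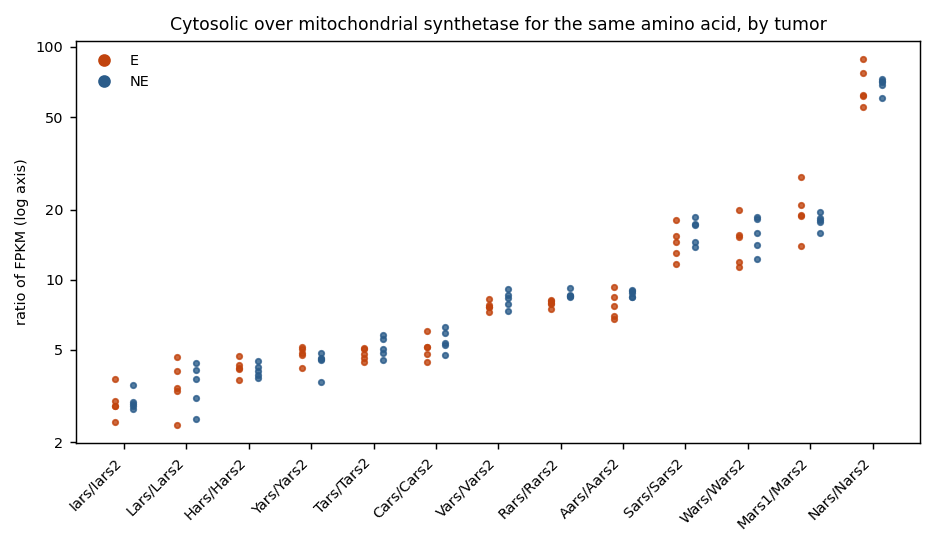
Ratio of cytosolic to mitochondrial FPKM (vertical axis, log scale) for 13 of the pairs of synthetases (horizontal axis), 1 point for each of the 10 tumors. All points lie above 1, and Nars over Nars2 is highest with a median of 69.7.

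Between the groups these ratios overlapped for 13 of the pairs. For Rars over Rars2 the ratio was 8.12, 8.19, 7.94, 7.89 and 7.45 in E and 9.24, 8.41, 8.51, 8.55 and 8.56 in NE, with every E tumor below every NE tumor. The means were 7.92 ± 0.288 and 8.66 ± 0.335 (SD, n = 5 each). This pair was singled out after its values were seen, and it is given without a test.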

How the data were processed

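Counts and FPKM for 21959 genes in 10 tumors were taken from 1 table that the authors deposited. Per the methods of the study, reads were aligned with Hisat2 2.0 to a rat assembly (Rnor 6.0) and FPKM made with Stringtie 1.3.0. The gene identifiers of the table are mouse Ensembl identifiers, no build is named in it, and how the counts were made is not given in the sources used here. The deposited FPKM equal the counts per length and total (largest relative deviation 3.78e-14), without TMM.

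Members and gene lists were chosen with earlier results of these data known. Genes named with the value of every tumor were those with an unadjusted p of at most 0.05, the highest, lowest and most variable member of each role, and always Atf4, Eif2ak4, Cebpg and Asns. The whole table was fitted with the quasi-likelihood functions of edgeR 4.0.16 in R 4.3.3 after TMM scaling and a filter on low counts within groups (filterByExpr), which left 13517 genes, and p-values were adjusted by Benjamini-Hochberg. SEs were taken from the F statistic. The procedure was also run on simulated counts, drawn independently for each gene and with larger changes than most members had. That run says nothing of the power for the differences given here. The edgeR p-values set the difference between the group means against the variation within the groups of 5 tumors, with dispersions moderated over genes. Alternatives were DESeq2 1.42.0, limma-voom with sample weights (limma 3.58.1), RLE size factors, no filter, the muscle list as covariate, the replicate block and leaving out each tumor. CPM used the TMM-scaled library sizes. Shared 50-base stretches and overlaps were counted in GENCODE M21. The values of 1 member are not reported here one by one, and it is left out of the plots that name genes.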

Additional observations from a re-analysis of the deposited data

Results flagged for a closer look

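In 8 of the 56 groups of 5 values of the 28 members given tumor by tumor, 1 tumor stood apart from the other 4 by Dixon's criterion (a gap of over 0.71 of the range). Chance gives about 2.8 in 56 groups, but some of these members were chosen for their wide range and all share the same tumors, so 8 cannot be read against it. E1 was high for Atf4 (393 CPM against at most 295 CPM in the other E tumors) and for Sesn2 (69.1 CPM against at most 48.3 CPM). E2 was high for Vldlr (11.9 CPM against at most 3.52 CPM), and E3 was low for Farsa (51.3 CPM against at least 58.9 CPM). NE4 was high for Chac1 (16.0 CPM against at most 9.21 CPM), Gpt2 (92.5 CPM against at most 53.7 CPM), Tarsl2 (28.4 CPM against at most 19.7 CPM) and Vldlr (76.5 CPM against at most 4.14 CPM). NE4 had 2.88% of its counts in the muscle list. With the muscle score in the fit, the log2 fold changes of Chac1, Gpt2, Tarsl2 and Vldlr were −0.59, −0.35, −0.40 and −0.30, against −0.58, −0.34, −0.40 and −1.90 without it.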

How the results depend on the processing

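No gene passed both the 2-fold and the FDR threshold in any of the 16 alternatives. The count of members with an unadjusted p of at most 0.05, which was 9, was 19 with limma-voom and sample weights (beside 13.3% of all genes) and ran from 4 to 24 when single tumors were left out, with 24 without E1, 5 without E4 and 4 without E5. It was 9 with RLE size factors and with no filter (beside 5.02% and 4.36% of all genes), and 10 with the muscle covariate (beside 7.83%). The count over all genes, 657, was 1800 with limma-voom, 1059 with the muscle covariate, 1350 without NE1, 400 without NE3 and 372 without E5, and the cause was not tested.

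Of the 28 members given tumor by tumor 21 kept the sign of their log2 fold change in all 16 alternatives, and Eif2ak4, Farsa, Gatb, Lars2, Pycr1, Slc7a11 and Vldlr did not. For Vldlr it was −0.30 with the muscle covariate, 0.59 with limma-voom, 0.14 with the replicate block and 0.97 without NE4. Medians over single tumors left out ran from −0.24 to −0.08 for the 28 genes named in the rule, from −0.20 to −0.11 for the cytosolic and from −0.09 to −0.04 for the mitochondrial synthetases.

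The tumors of both groups carry the numbers 1 to 5. Deviations of same-numbered tumors over all tested genes correlated at 0.0355, −0.156, −0.0949, −0.325 and 0.316. Only number 5 lay above its highest correlation with another number (0.316 against 0.115). The main fit did not take the numbers as pairs. Such correlations cannot exclude a pairing, since the cell makeup of each tumor enters them. The paper calls the tumors matched pairs without saying what matched them. The replicate block gave 13 members at an unadjusted p of at most 0.05 (18.1%, 12 lower in E), beside 5.28% of all genes. Asns, Atf4, Atf5, Shmt2 and, higher in E, Ppp1r15a were among the 13 and not among the 9, and Farsb was among the 9 only. With the block the SE was lower for Atf5 (0.0732 against 0.247) and Shmt2 (0.0588 against 0.114). It was higher for Cebpg (0.108 against 0.0996) and Tarsl2 (0.156 against 0.134).

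Rank correlation and the leaving out of NE4 or of E3 and E5 in the likeness to Asns were added after seeing the data. The lowest count of these members in any tumor was 7 reads (Vldlr in NE1), and the others had at least 84.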
